A study of Mus musculus with 6 samples.

Results

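The 8 genes described here make, bind or break down hyaluronan, a long unbranched sugar polymer of the extracellular matrix. They are the synthases Has1, Has2 and Has3, the binding proteins Cd44, Vcan and Tnfaip6, and the hyaluronidases Hyal1 and Hyal2. They were chosen by symbol, and all 8 were found among the 18182 genes of the files. The expression values come from Lewis lung carcinoma (LLC), a cancer line from mouse lung, which was labelled with red fluorescent protein (LLC-RFP) and injected under the skin of wild type C57BL/6 mice. In the group called LLC alone only LLC-RFP was injected, and in the group called LLC with BMSCs the same cells were injected together with bone marrow-derived mesenchymal stem cells. The BMSCs were purchased cells from C57BL/6 mice, and every host kept its own immune and stromal cells. Fluorescent cells were sorted from the primary tumours by flow cytometry, and poly-A RNA was sequenced from 3 libraries per group. The study's methods give female mice and their age for allograft growth in general and not for the sequenced tumours, and the labels do not say whether the libraries of a group came from separate animals, so that p values measure the spread between these libraries, which may be technical.

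Hyaluronan is made at the plasma membrane by the HAS enzymes, which join UDP-glucuronic acid and UDP-N-acetylglucosamine in alternation and push the growing chain out of the cell. CD44 is its main receptor on the cell surface, versican (Vcan) is a large proteoglycan that binds the chain through its amino-terminal domain, and TSG-6 (Tnfaip6) binds it and moves heavy chains of inter-alpha-inhibitor onto it. HYAL2 at the membrane and HYAL1 in lysosomes cut the chain into smaller pieces. In tumours and their stroma the polymer is known for a role in adhesion, migration and tissue swelling.

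The libraries held between 33476347 and 46189113 estimated fragments on genes. LLC alone replicate 3 stood apart from the others by gene length. Among the fifth of tested genes with the longest transcripts, its median log2 CPM (counts scaled to a common library total) lay 0.37 below the mean of all libraries, against values of -0.02 and -0.003 in LLC alone replicates 1 and 2 and of 0.10 to 0.18 in LLC with BMSCs. Results that rest on that library are therefore given also without it. Markers of several cell types moved with the group as well, and some were already high in LLC alone (Col3a1 at a mean of 228 CPM, Krt8 at 167 CPM). The 13 BMSC or fibroblast markers summed to 370.0 to 432.9 CPM in LLC alone and to 817.0 to 866.5 CPM with BMSCs. Of the 11 tested, 11 were higher, beside 31.5% of all tested genes. Thy1 and Cxcl12 were at 0 in all LLC alone libraries and stayed low with BMSCs, at means of 0.02 and 0.20 CPM. The sums for neutrophil markers rose from a range of 0.48 to 0.81 CPM to one of 20.3 to 23.5 CPM (6 of 6 tested markers higher), those for macrophage markers from 9.60 to 11.7 CPM to 18.4 to 19.1 CPM (5 higher and 1 lower of 6), and those for lymphocyte markers from 0.41 to 0.63 CPM to 2.53 to 2.74 CPM, with Ptprc the 1 tested marker. Within the neutrophil list S100a9, S100a8 and Ngp gained the most, to means of 10.3, 6.42 and 2.86 CPM. The untested Ly6g did not rise, at means of 0.07 CPM in LLC alone and 0.04 CPM with BMSCs. Within the lymphocyte list the rise was in Ptprc, from a mean of 0.16 to 2.33 CPM. The other lymphocyte markers in the files had means of at most 0.191 CPM in either group. None of the 2 tested endothelial markers was called, at sums of 1.05 to 1.29 CPM and 1.46 to 1.81 CPM. Both tested epithelial markers were higher, with sums of 158 to 179 CPM in LLC alone and 188 to 196 CPM in LLC with BMSCs: Krt8 went from a mean of 95.3 to 110.0 FPKM and Krt18 from 0.08 to 0.65 FPKM, while Epcam, Cdh1 and Krt19 stayed at or below 0.04 FPKM in the mean of either group. In sorted bulk cells a change in the number of expressing cells and a change in RNA per cell cannot be told apart.

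Of the 8 genes, Cd44 rose in LLC with BMSCs and no other tested member passed the threshold. Tests used edgeR on the estimated counts, with a Benjamini-Hochberg adjusted p under 0.05 over all 13353 genes that passed the filter on low counts. That made 1 of 7 tested members higher and 0 lower, whereas 62.9% of all tested genes were called, 31.5% as higher and 31.3% as lower. Has2 was too low to be tested. The count of 0 lower does not hold under every processing: it was 1 without LLC alone replicate 3 and 2 once each library's trend over gene length was removed, as given below for Has3 and Vcan. At an unadjusted p under 0.05 it was 0 as well, and it was 0 with DESeq2. The median log2 fold change of the 7 members was 0.07, beside 0.01 over all tested genes. The FPKM ranges (fragments per length of transcript, scaled to the library total) of the groups did not overlap for 2 of the 7, Cd44 and Has1, against 70.6% of all tested genes.

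Binding genes and hyaluronidases were expressed far above the synthases. By mean FPKM, a level per length that can be set side by side between genes, the order was the same in both groups and ran Cd44, Hyal2, Vcan, Tnfaip6, Hyal1, Has3, Has1 and Has2. Cd44 stood at 48.9 ± 0.29 FPKM without BMSCs and at 79.7 ± 2.80 FPKM with them (SD, n = 3 each). Hyal2 at 14.0 ± 2.0 and 13.2 ± 1.41 FPKM and Vcan at 12.5 ± 1.49 and 11.9 ± 0.22 FPKM followed, and their ranges overlapped in both groups, so that these neighbours were not separated. All other neighbours in the order had ranges that did not overlap, but the level of Hyal1, and so its place, is uncertain (below). The 3 synthases together summed to between 0.28 and 0.72 FPKM in a library, and the 2 hyaluronidases to between 15.2 and 19.4 FPKM.

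**Figure D1:**
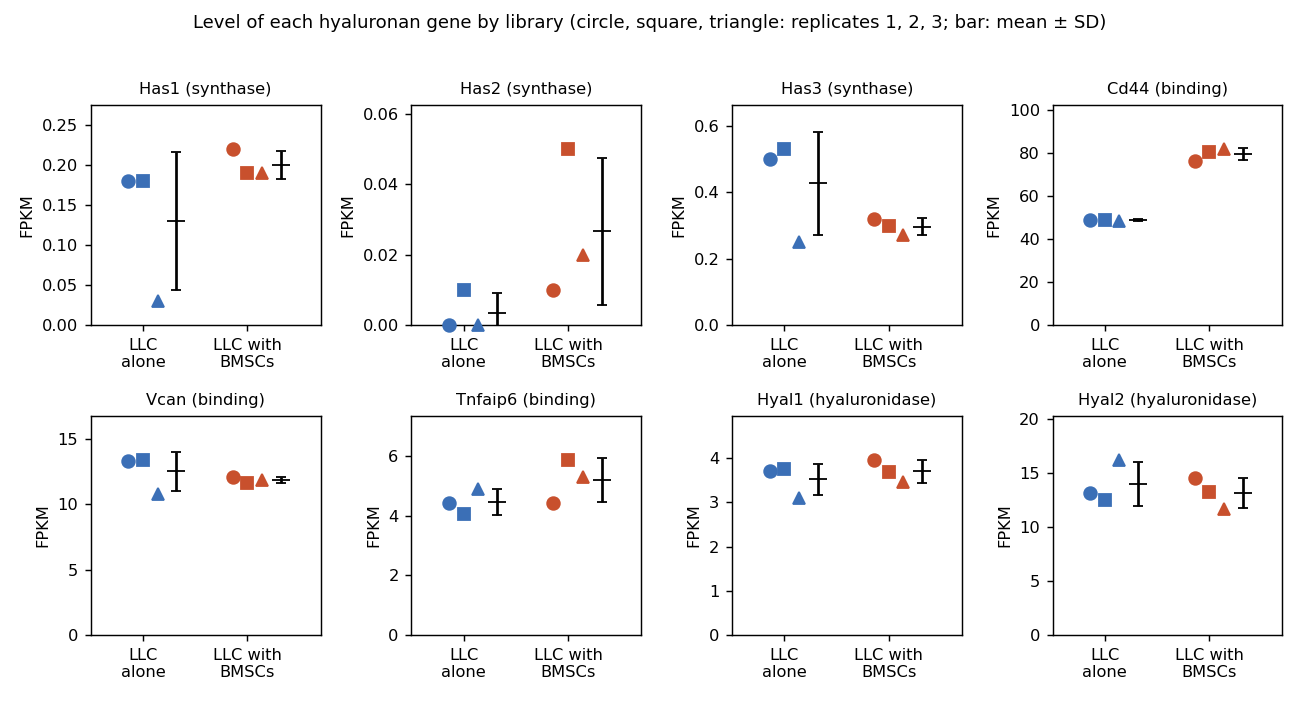
FPKM of each of the 8 hyaluronan genes (vertical axes, linear, each from 0) in LLC alone (blue) and LLC with BMSCs (red), with circles, squares and triangles for replicates 1, 2 and 3 and a black bar for the mean ± SD. Cd44 is the gene with a clear gap between the groups, 48.6 to 49.1 against 76.5 to 81.9 FPKM, and LLC alone replicate 3 is the low point for Has1 and Has3.

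Cd44 (NCBI gene 12505) spans chr2:102811141-102901665 on the minus strand of GRCm38 (GENCODE M21 annotation), and no other annotated gene overlaps its exons. Its constant first exons are followed by a block of variable exons that code for an added stretch of the stem of the receptor. The standard form skips the whole block. The transcripts in the files differ in where the last constant exon before the block (222 bases, chr2:102853015-102853236) joins the next one. These joins are shown because they tell the forms apart. The last 30 bases of the constant exon are in lower case and the first 30 of the next coding exon in capitals, 5′ to 3′ on the coding strand, read from GENCODE M21 transcripts matched to their RefSeq names.
NM_001039151, 0 variable coding exons: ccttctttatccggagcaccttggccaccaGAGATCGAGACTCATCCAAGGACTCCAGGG
NM_001177787, 2 variable coding exons: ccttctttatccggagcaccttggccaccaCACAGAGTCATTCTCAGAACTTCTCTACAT
NM_009851, 10 variable coding exons: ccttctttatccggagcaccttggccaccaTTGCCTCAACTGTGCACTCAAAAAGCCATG

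Cd44 measured 49.11, 48.98 and 48.55 FPKM in the libraries of LLC alone and 76.53, 80.66 and 81.86 FPKM in those with BMSCs, here and below in the order of replicates 1, 2 and 3. All libraries with BMSCs lay above all libraries without. The estimated counts behind these levels were 7176 to 9916 in LLC alone and 14867 to 15649 in LLC with BMSCs. The log2 fold change was 0.68 (SE 0.05, 95% interval 0.56 to 0.80, edgeR adjusted p = 2.86e-05), a rise of 1.60-fold. By size this was a common change in these libraries, since 27.0% of all tested genes had a larger absolute log2 fold change. Its rank by mean FPKM among the genes of the files moved from 1795 to 990. The call held in all 18 alternative fits, with log2 fold changes from 0.46 to 0.71. The lowest values came with the trends over length and GC content removed.

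The gain in Cd44 came to 130 CPM, from a range of 215 to 216 CPM to one of 333 to 354 CPM. Macrophages, neutrophils and lymphocytes carry CD44 too, and the summed gain of the 3 marker lists for these cells was 31.4 CPM. CPM is not scaled for transcript length. Per length S100a8 and S100a9 rose from means of 0.09 and 0.02 FPKM to 20.2 and 22.4 FPKM, and Cd68 fell from 5.55 to 3.03 FPKM. The sum of a marker list therefore cannot be set against the gain in Cd44 as an amount of cells. The BMSC or fibroblast markers gained 425 CPM, of which Col3a1, from a mean of 228 to 546 CPM, made up the most. BMSCs are themselves known for CD44 on their surface. Sorting for red fluorescence is meant to leave out BMSCs and host cells, which did not carry the label. The part of any of these cells in the rise of Cd44 was not tested.

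The standard form of Cd44 made up nearly all of the gene in every library. Its share of the summed Cd44 transcript FPKM was 94.8%, 93.6% and 94.8% in LLC alone and 96.5%, 96.4% and 96.4% in LLC with BMSCs. The lowest library was thus at 93.6%, and all those with BMSCs were above all without. The mean shares of 94.4% ± 0.68 and 96.5% ± 0.07 (SD, n = 3 each) differed by 2.05 percentage points, with p = 0.1 in a two-sided exact permutation test, the smallest that 3 against 3 libraries can give, and 0.3 after adjustment over the 6 transcripts. None of the other transcripts took more than 2.25% in any library.

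The rise of Cd44 was seen in the standard form. NM_001039151 went from 46.57, 45.87 and 46.03 FPKM in LLC alone to 73.88, 77.77 and 78.94 FPKM with BMSCs. The 5 transcripts with variable exons together stood at 2.54, 3.12 and 2.53 FPKM in LLC alone and at 2.65, 2.89 and 2.92 FPKM with BMSCs, ranges that overlap. The means of this sum were 2.73 ± 0.34 and 2.82 ± 0.15 FPKM (SD, n = 3 each). It was formed after the values were seen and is given as a description. Among the single variant forms, NM_001177787 at 0.41 to 1.19 FPKM was the most abundant in the mean of both groups, and NM_009851, which holds the whole block, stayed at or below 0.18 FPKM. All values of single variant forms are low, and the estimates divide shared reads between forms with an error that the files do not give.

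**Figure D2:**
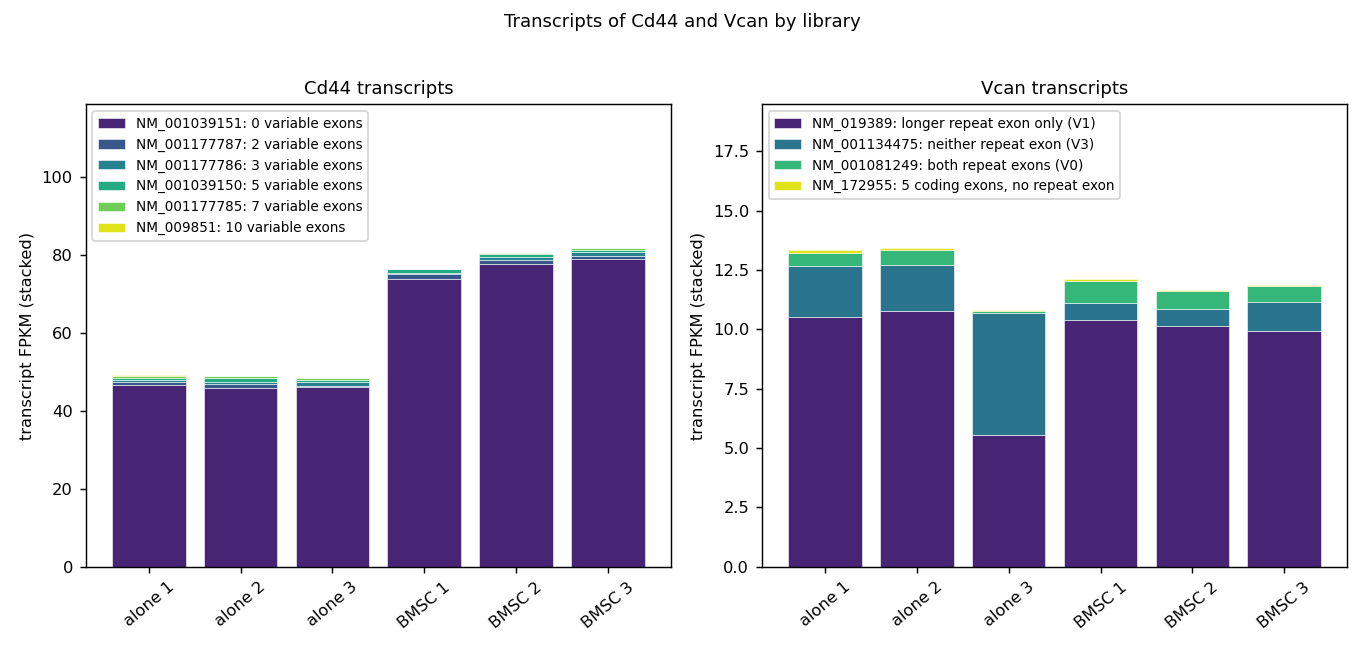
Transcript FPKM of Cd44 (left) and Vcan (right), stacked on linear axes from 0, for LLC alone replicates 1 to 3 and LLC with BMSCs (BMSC) replicates 1 to 3. The Cd44 form without variable exons fills 93.6% to 96.5% of each bar, and LLC alone replicate 3 differs from all other libraries in its Vcan forms, with 47.4% in the form that has neither repeat exon.

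Vcan (NCBI gene 13003, chr13:89655312-89742509, minus strand, GRCm38) has 2 large exons that carry the attachment sites for chondroitin sulphate chains, of 2880 and 5217 coding bases. Versican forms differ in which of these they keep, while the domain that binds hyaluronan is kept in each of the 3 forms shown here. The joins below follow the last exon before these repeat exons (294 bases, chr13:89712205-89712498), again with the first 30 bases of the next exon in capitals, and are shown because the forms shifted between libraries. The join of NM_001081249 marks only that the exon of 2880 coding bases is kept. NM_001134474, an annotated form without the longer repeat exon, has the same join.
NM_001081249, both repeat exons (V0): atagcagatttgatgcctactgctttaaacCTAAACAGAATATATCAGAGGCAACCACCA
NM_019389, longer repeat exon only (V1): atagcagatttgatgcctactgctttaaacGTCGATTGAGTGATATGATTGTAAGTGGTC
NM_001134475, neither repeat exon (V3): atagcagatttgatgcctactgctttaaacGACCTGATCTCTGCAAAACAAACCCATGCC

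At the gene level Vcan did not pass the test. It stood at 13.33, 13.43 and 10.80 FPKM in LLC alone and 12.10, 11.66 and 11.88 FPKM with BMSCs. The 3 libraries with BMSCs fell between LLC alone replicate 3 and the other two. The log2 fold change was 0.07 (95% interval -0.29 to 0.43, edgeR adjusted p = 0.716). Its direction was not stable: with limma on FPKM values (pseudocount 1) it was -0.06. Without that library the log2 fold change was -0.11 (adjusted p = 0.0585), with the length trend removed it was -0.26 (adjusted p = 0.0023), and with both it was -0.32 (adjusted p = 0.0001).

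The form with the longer repeat exon, V1, was the main one. Its share of Vcan transcript FPKM was 78.8%, 80.0% and 51.5% in LLC alone and 85.8%, 86.8% and 83.6% in LLC with BMSCs. V3, the short form without either repeat exon, took 16.2%, 14.4% and 47.4% in LLC alone and 6.12%, 6.08% and 10.2% in LLC with BMSCs. LLC alone replicate 3 held the most V3 by far, yet replicates 1 and 2 of that group were also above every library with BMSCs. V0 had 4.28%, 4.99% and 1.02% in LLC alone and 7.60%, 6.77% and 5.90% in LLC with BMSCs. The groups did not overlap in any of these 3 shares, which are parts of the same total and so move together. No test was run on them. Non-overlap was common in these libraries, since the FPKM ranges of 70.6% of all tested genes did not overlap. Long genes were low in LLC alone replicate 3 and high in LLC with BMSCs (above), and the V1 and V0 transcripts are 9552 and 12432 bases long against 4335 bases for V3. The part of transcript length in these shares was not tested.

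Tnfaip6 (NCBI gene 21930, chr2:52038009-52056686, plus strand, GRCm38), the hyaluronan-binding protein TSG-6 that mesenchymal stem cells are known to secrete, stood at 4.43, 4.04 and 4.90 FPKM in LLC alone and 4.43, 5.87 and 5.27 FPKM with BMSCs. The ranges overlapped. Its log2 fold change was 0.19 (95% interval -0.10 to 0.49, edgeR adjusted p = 0.207). It passed the threshold with the length trend removed (0.27, adjusted p = 0.0387) and with length and GC trends removed (0.23, adjusted p = 0.0337), and not with the length trend removed and LLC alone replicate 3 left out (0.28, adjusted p = 0.0577). The 3 binding genes thus differed in what the data show: a rise for Cd44, and intervals that span 0 for Vcan and Tnfaip6.

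Has1 and Has2 were near the lower limit of these libraries, and all synthases were low. Has3 (NCBI gene 15118, chr8:106870242-106884566, plus strand, GRCm38) was the highest of them, at 0.50, 0.53 and 0.25 FPKM in LLC alone and 0.32, 0.30 and 0.27 FPKM with BMSCs, from estimated counts of 68 to 136. LLC alone replicates 1 and 2 were above all libraries with BMSCs and replicate 3 was below them. The log2 fold change was -0.54 (SE 0.27, 95% interval -1.16 to 0.09, edgeR adjusted p = 0.116). Has3 passed the threshold as lower without LLC alone replicate 3, at -0.81 (adjusted p = 0.0009), with the length trend removed, at -0.78 (adjusted p = 0.0084), and with both, at -0.997 (adjusted p = 0.0002). The exons of Has3 overlap those of Chtf8 on the opposite strand by 352 bases. Chtf8 had 5406 or more counts per library against at most 136 for Has3 and was itself lower in LLC with BMSCs, by a log2 fold change of -0.52 (adjusted p = 0.000321). The sources used here do not state a strand setting for the counting, and without one the reads of the overlap cannot be told apart. The estimated counts of Has3 and of Chtf8 were whole numbers in every library. The part of the overlap in the values of Has3 was not tested.

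Has1 (NCBI gene 15116, chr17:17843323-17855205, minus strand, GRCm38) had 17, 12 and 3 counts in LLC alone and 20, 17 and 17 in LLC with BMSCs, or 0.18, 0.18 and 0.03 FPKM against 0.22, 0.19 and 0.19 FPKM. The groups did not overlap in FPKM, but 2 of the LLC alone libraries were only 0.01 FPKM, the last digit given, below the lowest library with BMSCs. The log2 fold change of 0.64 had a 95% interval of -0.46 to 1.75 (edgeR adjusted p = 0.268) and was 0.15 without LLC alone replicate 3. A difference was not detectable at this depth.

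Has2 (NCBI gene 15117, chr15:56665627-56694539, minus strand, GRCm38), the synthase best known from fibroblasts and development, had 0, 1 and 0 counts in LLC alone and 2, 9 and 3 in LLC with BMSCs. The files list no gene under 0.01 FPKM, so that a count of 0 here means that the gene was not listed. The 3 libraries with BMSCs had the higher counts, with LLC with BMSCs replicate 2 holding the most. Has2 did not pass the filter on low counts. With no filter its adjusted p was 0.0439 (edgeR), and no fold change is given for values this low. Its exons overlap those of Has2os on the opposite strand by 182 bases.

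Hyal2 (NCBI gene 15587, chr9:107567945-107572779, plus strand, GRCm38) was the main hyaluronidase, at 13.17, 12.49 and 16.25 FPKM in LLC alone and 14.53, 13.26 and 11.71 FPKM with BMSCs. The highest and the second lowest value belonged to LLC alone, and the groups overlapped. Hyal2 had a log2 fold change of -0.11 (95% interval -0.39 to 0.17, edgeR adjusted p = 0.459) and 0.02 without LLC alone replicate 3. The interval runs from 0.763-fold to 1.13-fold.

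Hyal1 (NCBI gene 15586, chr9:107576927-107581710, plus strand, GRCm38), the lysosomal enzyme, lies next to Hyal2. It stood at 3.70, 3.75 and 3.11 FPKM in LLC alone and 3.97, 3.68 and 3.46 FPKM with BMSCs, with overlap between the groups. Hyal1 had a log2 fold change of 0.07 (95% interval -0.16 to 0.31, edgeR adjusted p = 0.545) and -0.02 without LLC alone replicate 3. Hyal1 shares 1920 exonic bases with Naa80 and 159 with Hyal3 on the same strand, and its estimated count was whole in 0 of 6 libraries. Added to the count of Naa80 (141 to 311 per library, listed as Nat6), it was whole within 0.006 in 4 of 6 libraries. The sum of both genes was 17.9 ± 0.50 CPM in LLC alone and 17.6 ± 1.40 CPM in LLC with BMSCs (SD, n = 3 each). The split between them, and with it the level of Hyal1, is uncertain. NM_008317, the RefSeq transcript of Hyal1, took 0% to 1.62% of its transcript FPKM, and the rest was assigned to 2 transcripts that the authors' pipeline assembled.

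**Figure D3:**
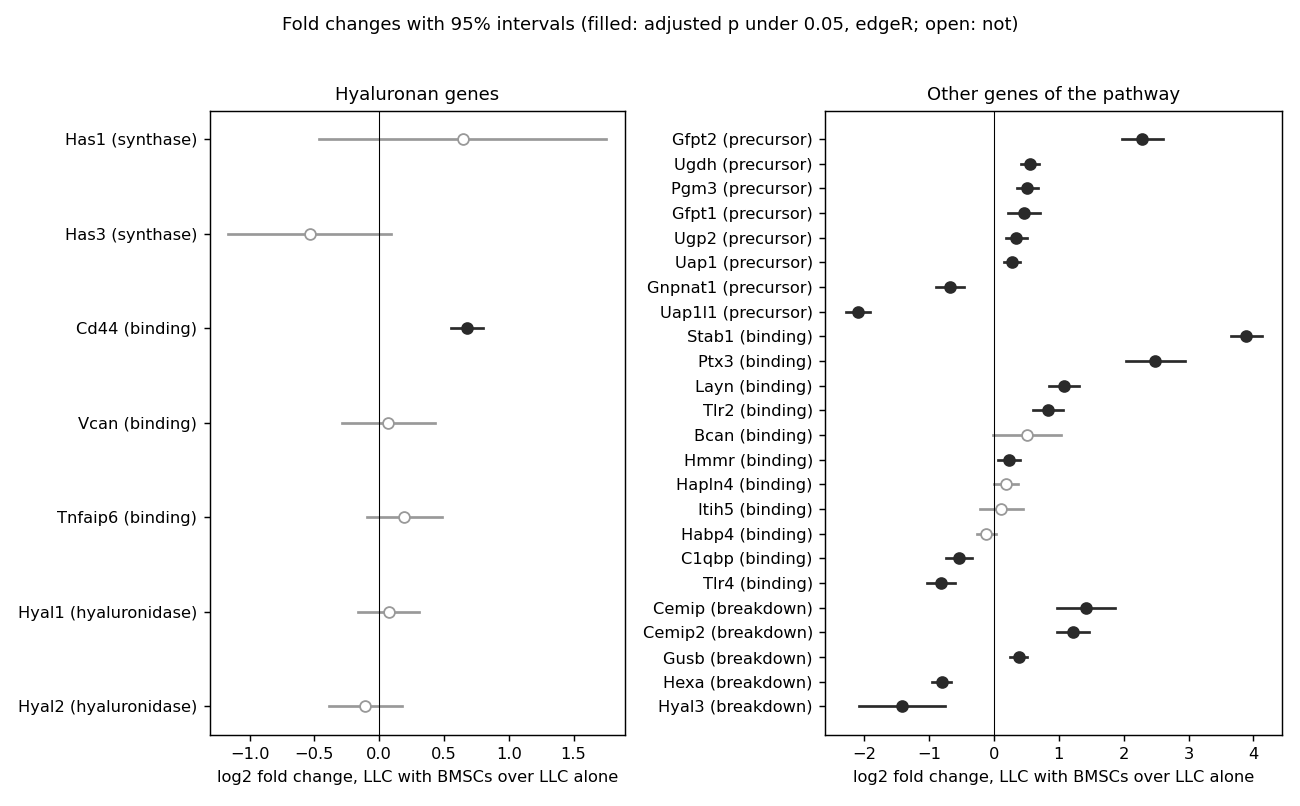
Log2 fold change of LLC with BMSCs over LLC alone (horizontal axes, different scales left and right) with 95% intervals for the 7 tested hyaluronan genes (left) and 24 of the 25 other tested genes of the pathway (right), filled where the edgeR adjusted p was under 0.05. On the left only Cd44 is filled, and on the right 14 genes are filled above 0 and 6 below.

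**Figure D4:**
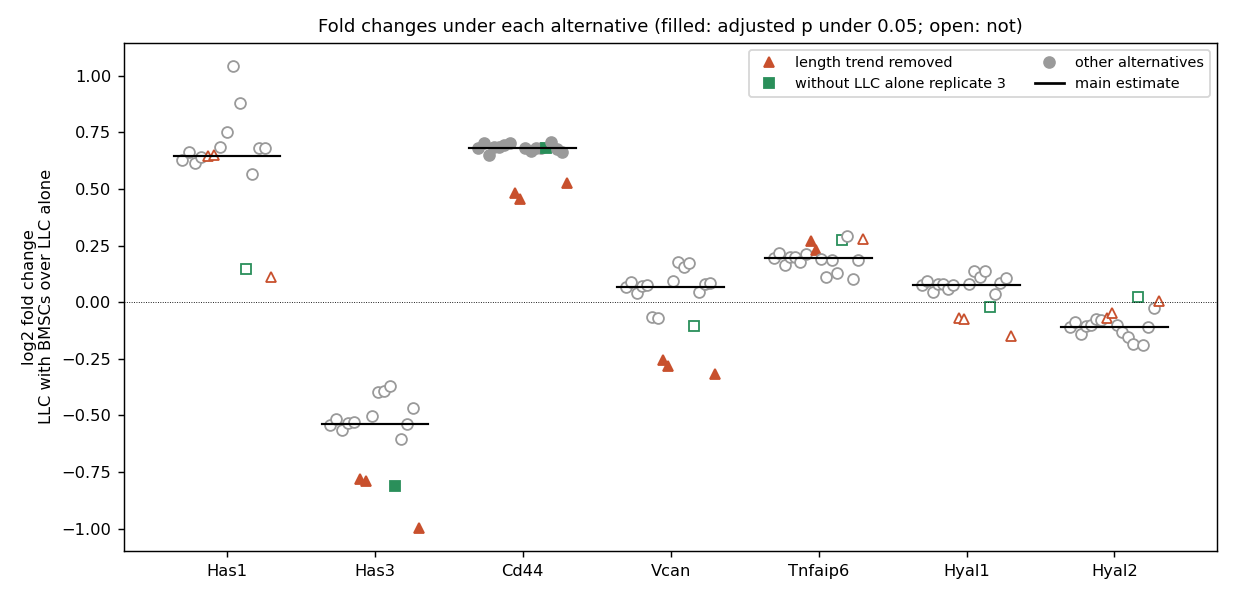
Log2 fold change of the 7 tested hyaluronan genes (vertical axis) under each alternative fit, filled where the adjusted p was under 0.05, with a black line for the main estimate. Cd44 is filled throughout at 0.46 to 0.71, and Has3 and Vcan are filled below 0 in the fits with the length trend removed, Has3 also without LLC alone replicate 3.

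Around the 8 genes, a list of 42 other genes of hyaluronan metabolism was read from the same fit. The files held 39 of them and 25 could be tested, and 14 were higher, 6 lower and 5 not called in LLC with BMSCs. The share called was 80.0%, beside 62.9% of all tested genes, and the median log2 fold change was 0.35, beside 0.01. Genes named in the next 3 paragraphs other than Ugdh, Uap1, Uap1l1, Gfpt2, C1qbp, Hmmr, Habp4, Stab1, Layn, Cemip2, Gusb and Hexa were chosen after their values were seen. Amounts of rise and fall in these paragraphs are log2 fold changes.

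All 8 genes that supply the sugar precursors were called, 6 as higher and 2 as lower, where 62.9% of all tested genes were called. Their products also feed other glycans. Ugdh, which makes UDP-glucuronic acid, went from 75.4 ± 1.06 to 112 ± 6.70 FPKM (log2 fold change 0.55, adjusted p = 0.000161), and Ugp2, which makes the UDP-glucose it uses, rose by 0.35. On the side of UDP-N-acetylglucosamine, Gfpt1 and Gfpt2, which take the first step of the hexosamine pathway, rose by 0.46 and 2.29, although Gfpt2 stayed low at 0.31 ± 0.05 and 1.52 ± 0.08 FPKM. Pgm3 rose by 0.51 and Uap1, which makes the final product, by 0.27. Gnpnat1, the acetyltransferase that acts before Pgm3, fell by 0.68. Uap1l1, a relative of Uap1, fell from 44.62, 50.63 and 49.41 FPKM in LLC alone to 10.76, 12.29 and 11.24 FPKM with BMSCs, a log2 fold change of -2.10 (95% interval -2.28 to -1.92, adjusted p = 7.32e-07). All 3 libraries with BMSCs were below all without. With the length trend removed the rises of Gfpt1, Pgm3 and Uap1 shrank to 0.19, 0.31 and 0.18 and were still called. The call for Uap1 was lost when the closest pairs of libraries were summed (adjusted p = 0.0779).

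Of 24 other binding genes 23 were in the files and 11 tested, with 5 higher, 2 lower and 4 not called. The share called, 63.6%, was close to the 62.9% of all tested genes. Stab1, a scavenger receptor of sinusoidal endothelium and macrophages, was at 0.22, 0.23 and 0.19 FPKM in LLC alone and 3.47, 3.06 and 3.04 FPKM with BMSCs (log2 fold change 3.89, SE 0.10, adjusted p = 1.93e-07). The groups were far apart. Of the 6 tested macrophage markers 5 were higher too, among them Adgre1, at 0 in LLC alone and a mean of 1.51 CPM in LLC with BMSCs, while Cd68, the most abundant of them in LLC alone, fell from a mean of 6.67 to 3.59 CPM. Their part in the rise of Stab1 was not tested. The receptor Layn rose from 1.73 ± 0.14 to 3.64 ± 0.33 FPKM (1.08, adjusted p = 6.47e-05), Ptx3, a partner of TSG-6 in hyaluronan matrices, by 2.49 from 0.15 to 0.86 FPKM, and Tlr2 by 0.83. Hmmr, a hyaluronan-binding protein that also acts at the mitotic spindle, passed narrowly at 0.23 (adjusted p = 0.0277) and was not called in 7 of 18 alternative fits. C1qbp, mostly a mitochondrial protein, fell from 344 ± 35.5 to 240.0 ± 11.2 FPKM (-0.54, adjusted p = 0.000931), and Tlr4 fell by 0.81. Habp4 at -0.12, Hapln4 at 0.19, Bcan at 0.51 and Itih5 at 0.11 were not called, and Habp4 was called as lower without LLC alone replicate 3 (-0.15, adjusted p = 0.0426) and in all 3 fits with a length trend removed (-0.18 to -0.22, adjusted p from 0.0063 to 0.0209). The lymphatic receptor Lyve1 was at or below 0.01 FPKM in every library.

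Of 10 other breakdown genes 8 were in the files and 6 tested, with 3 higher, 2 lower and 1 not called. The share called was 83.3%, beside 62.9% of all tested genes. Cemip2 (listed as Tmem2), a membrane protein tied to hyaluronan breakdown at the cell surface, was at 3.26, 3.30 and 2.47 FPKM in LLC alone and 7.05, 7.04 and 7.11 FPKM with BMSCs. The groups were separate, and the log2 fold change was 1.22 (95% interval 0.97 to 1.46, adjusted p = 4.89e-05). Its relative Cemip rose by 1.41 at a low level, 0.09 ± 0.01 to 0.25 ± 0.05 FPKM. Of the lysosomal enzymes that remove sugars from the ends of the fragments, Gusb rose by 0.38 and Hexa fell by 0.81 (adjusted p = 3.27e-05). Hyal3, which shares exonic bases with Hyal1, fell by 1.42 (adjusted p = 0.00315) from 0.51 ± 0.03 to 0.19 ± 0.08 FPKM.

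The pattern over the 6 libraries was compared between genes for the most abundant member of each role, by Pearson's r of log2 CPM, as a description in which the points share library, depth and group. Closest to Has3 were Wdr76, Ap1b1 and Dcaf5 (r = 0.997, 0.996 and 0.992), and closest to Hyal2 were G3bp1, Csrp1 and Gpsm3 (r = 0.985, 0.974 and 0.971). For Cd44, 2084 tested genes had an r over 0.95, so that its closest genes, Gm4951, Slc4a4 and Lama1, all with a mean of 0 FPKM in LLC alone, stood for the split between the groups. For Has3 that number was 131 and for Hyal2 it was 11.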

How the data were processed

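The members and gene lists were chosen with earlier results of these data known. The authors deposited estimated counts and FPKM per gene and transcript. The submitters' notes name HISAT, StringTie, Cufflinks, GATK and mm8 without roles, and the counting program and its use of strand are not given in the sources used here. The paper names BGISEQ-500 sequencing and the labels Illumina protocols. Estimated counts were rounded and tested in edgeR 4.0.16 (R 4.3.3; TMM, default filter, quasi-likelihood, Benjamini-Hochberg 0.05), after a test on simulated data. Unlisted genes were taken as 0. Positions and exon joins were read from GENCODE M21 (GRCm38). Fold changes are LLC with BMSCs over LLC alone. Low counts kept Has2 and 14 pathway genes in the files from being tested. Intervals of 95% are from the model. Alternatives used DESeq2 1.42.0, limma 3.58.1, other scalings and filters, trends over length and GC removed with mgcv 1.9.3 (GC known for 93.8% of tested genes), the replicate block, summed pairs, and each library left out. Other pathway genes were named if called with a log2 fold change past 1 in size and a group mean of at least 1 FPKM, or as the 3 highest of a role. The length trend without LLC alone replicate 3 was added after the data were seen. A gene of the pathway list is not reported here.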

Additional observations from a re-analysis of the deposited data

How the results depend on the processing

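Cd44 kept its call in all 18 alternatives. Vcan turned negative with limma at a pseudocount of 1 FPKM (-0.064) and of 0.1 FPKM (-0.068), with the length trend removed (-0.26), with length and GC trends removed (-0.28), without LLC alone replicate 3 (-0.11) and with that and the length trend removed (-0.32). In the same length, length and GC, and length without replicate 3 fits, Hyal1 was at -0.069, -0.074 and -0.15, and Has3 was lower at -0.78, -0.79 and -0.997. Tnfaip6 was called at 0.27 and 0.23 in the first 2 of these, and Hyal2 was at 0.0032 in the third. The cause was not tested. Leaving out 1 library at a time gave log2 fold changes of -0.81 to -0.37 for Has3, 0.15 to 1.04 for Has1, 0.66 to 0.71 for Cd44, -0.11 to 0.17 for Vcan, 0.10 to 0.29 for Tnfaip6, -0.020 to 0.14 for Hyal1 and -0.19 to 0.022 for Hyal2. The Vcan, Hyal1 and Hyal2 values past 0 (-0.11, -0.020 and 0.022) and the lowest Has3 value all came without LLC alone replicate 3. The number of members called higher was 2 with no filter, with the length trend removed and with length and GC trends removed, and 0 at an adjusted p under 0.001 with a log2 fold change past 1 in size. The number called lower was 2 in the 3 fits with a length trend removed and 0 to 1 in the leave-one-out fits. At the stricter threshold the pathway list had 6 higher and 1 lower and all genes 910 higher and 723 lower. No scaling moved the median of all genes by over 0.1. Requiring at least 1 FPKM in at least 3 libraries left 1 Cd44 transcript and so gives no share.

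No pairing by replicate number was seen. Same-numbered deviations correlated at 0.08, -0.11 and 0.06, and those of unlike number at -0.16 to 0.15. Correlations this small cannot tell whether the libraries were paired in the experiment. With the replicate block 4161 genes were higher and 4058 lower, and Cd44 was at 0.68. No member's call changed. Among the members low counts limit Has1 and Has2 most, with at most 20 counts in a library.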
